A study of Drosophila melanogaster with 4 samples.

Results

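The genes described here handle copper and iron in *Drosophila* larvae: the metallothioneins *MtnA*, *MtnB*, *MtnC* and *MtnD*, the ferritin chains *Fer1HCH* and *Fer2LCH*, the transferrins *Tsf1* and *Tsf2*, and the copper importers *Ctr1A* and *Ctr1B*. They were chosen by name and family, with earlier results of these data known. Of these 10 genes 8 had a named probe, out of 11907 named genes on the arrays, and no probe was named for *Ctr1A* and *Ctr1B*, which are not analysed here. RNA from whole *poly* mutant larvae (stock *poly*05137 over the TM6B balancer) was set against RNA from whole wild-type larvae (Canton S) on 4 arrays of 2 colours. Each array took a separate biological replicate of either genotype, and all larvae were collected early in the last larval instar, with no treatment. Before that, larvae of both genotypes had been moved to vials with fresh yeast paste. The paper reports slower larval development in *poly*, and a difference in stage between the genotypes was not tested. The labels give Canton S as the genetic background of both genotypes. The mutant allele is a single P-element insertion in the intron of *poly*, a subunit gene of Elongator. The sources used here do not say if the larvae were homozygous. The dye of *poly* was Cy5 for replicates 1 and 2, and Cy3 for the other pair, 3 and 4. Every value is a log2 ratio of *poly* over wild-type within an array, so a value above 0 means more transcript in *poly*, and levels of different genes cannot be compared.

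Metallothioneins are small, cysteine-rich proteins that bind copper, zinc and cadmium, and their genes are switched on by these metals through the factor MTF-1. Insect ferritin is a cage of heavy and light chains that is loaded with iron in the secretory pathway, and the larval midgut has a region where ferritin iron accumulates and another, that of the copper cells, where copper accumulates. Transferrin 1 carries iron through the haemolymph, and the Ctr1 proteins bring copper into cells.

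The *poly* transcript itself (CG9829, listed as *Elp6*) was below 0 on each of replicates 1 to 4, at −1.49, −1.57, −1.69 and −1.79. Its mean was −1.63 ± 0.13 (SD, n = 4), with an adjusted p of 0.0109 (limma, with Benjamini–Hochberg adjustment over 14569 probes). It passed without replicate 3 but not without replicate 1, 2 or 4 (adjusted p between 0.0972 and 0.117), where no probe on the arrays passed. Replicate 3 stood apart from the other arrays. Its ratios spread most widely, with a median absolute deviation of 0.35 against 0.20 to 0.26 on the others, and across all probes they correlated with those of replicates 1, 2 and 4 at r = 0.21, −0.18 and 0.30, against 0.385 to 0.619 among the other arrays. The metal handling genes are given with and without replicate 3.

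All 4 measured metallothioneins had mean ratios between 1.32 and 1.48 in *poly*, and both ferritin chains had ratios above 0 on each of the 4 arrays. No probe was named for *MtnE* and *MtnF*, further metallothionein genes outside the chosen ones. None of the 8 measured genes passed limma at an adjusted p under 0.05 over the 4 arrays, in either direction, where 1.42% of all named genes were called higher and 1.25% lower. At an unadjusted p under 0.05, 6 of the 8 were higher and 0 were lower, against 8.1% and 8.92% of all named genes. Without replicate 3, 4 of the 8 passed the adjusted threshold, *MtnA*, *MtnC*, *MtnD* and *Fer2LCH*, all higher in *poly*, and 0 were lower. In that fit 1.81% of all named genes were called higher and 1.27% lower. It keeps both arrays with *poly* in Cy5 (replicates 1 and 2) but only replicate 4 of the Cy3 pair. Without replicate 1, 2 or 4, none of the 8 passed, and 0 of all named genes were called higher or lower. With arrays weighted by their agreement 5 passed, the same 4 and *Fer1HCH*, against 5.22% of all named genes. The median of the 8 mean ratios was 1.05, against 0.039 over all named genes, and the medians on replicates 1 to 4 were 1.20, 1.02, 0.30 and 1.49. In RNA of whole larvae, a change in the number of cells of a type and a change in RNA per cell cannot be told apart.

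**Figure D1:**
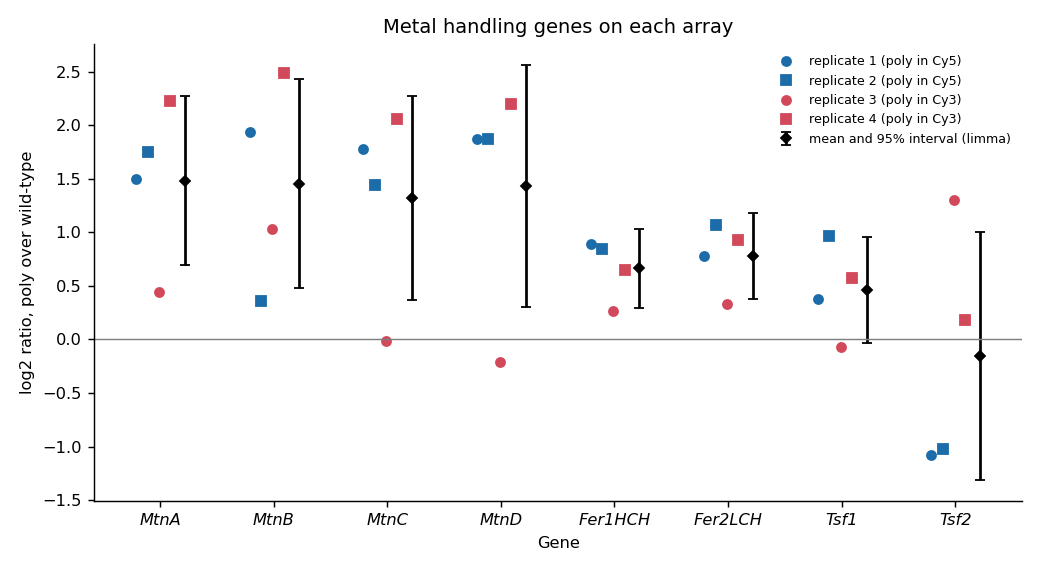
Log2 ratio of *poly* over wild-type for the 8 measured metal handling genes, with 1 point per array (blue, *poly* in Cy5; red, *poly* in Cy3) and, in black, the mean with limma's 95% interval. Replicate 3 is the lowest array for *MtnA*, *MtnC*, *MtnD*, *Fer1HCH*, *Fer2LCH* and *Tsf1*, and for *Tsf2* the arrays split by dye.

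*MtnA*, the most widely studied of the fly metallothioneins and one with a preference for copper, had log2 ratios of 1.50, 1.75, 0.45 and 2.23 on replicates 1 to 4. It was higher in *poly* on each array, and least so on replicate 3. The mean was 1.48 ± 0.75 (SD, n = 4), which is 2.79-fold, with a 95% interval from 0.69 to 2.27 and an adjusted p of 0.093 from limma. Without replicate 3 the mean was 1.83 (adjusted p = 0.0257 from limma).

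*MtnB*, which in flies is induced by cadmium and copper, had ratios of 1.94, 0.36, 1.03 and 2.49. It too was higher on each array, but its lowest value fell on replicate 2, not on replicate 3. Its mean was 1.45 ± 0.95 (95% interval 0.48 to 2.43, adjusted p = 0.15 from limma). It was the only metallothionein that missed the adjusted threshold without replicate 3 (mean 1.60, adjusted p = 0.164).

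*MtnC* and *MtnD*, 2 further metal-binding members of the family, shared one pattern over the arrays. *MtnC* had ratios of 1.78, 1.44, −0.012 and 2.06, and *MtnD* of 1.87, 1.87, −0.21 and 2.20. Both were high on 3 arrays and below 0 on replicate 3, giving means of 1.32 ± 0.92 (95% interval 0.37 to 2.27, adjusted p = 0.173 from limma) and 1.43 ± 1.11 (0.30 to 2.57, adjusted p = 0.205). Without replicate 3 the means were 1.76 (adjusted p = 0.0243) and 1.98 (adjusted p = 0.0182). Cross-hybridization between the related metallothionein probes was not tested. The difference between *MtnB* and the mean of the other 3 was 0.22, −1.33, 0.95 and 0.33 on replicates 1 to 4. *MtnB* therefore did not follow the others on replicates 2 and 3, and the mean difference of 0.043 ± 0.97 did not hold up against the spread (exact sign-flip permutation test, two-sided, p = 1, n = 4). Of 3 such differences compared, none could go below p = 0.125 in this exact test with 4 arrays.

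Within each array the metallothioneins lay near the top of all named genes, except on replicate 3 and, for *MtnB*, on replicate 2. *MtnA* exceeded 99.1%, 99.2%, 72.1% and 99.7% of the genes on replicates 1 to 4. *MtnD* exceeded 99.5%, 99.4%, 23.8% and 99.6%. *MtnB* exceeded 99.5% on replicate 1 and 99.8% on replicate 4, but 86.5% on replicate 2 and 84.2% on replicate 3. By their mean over the 4 arrays the metallothioneins exceeded 99.0% to 99.3% of genes.

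**Figure D2:**
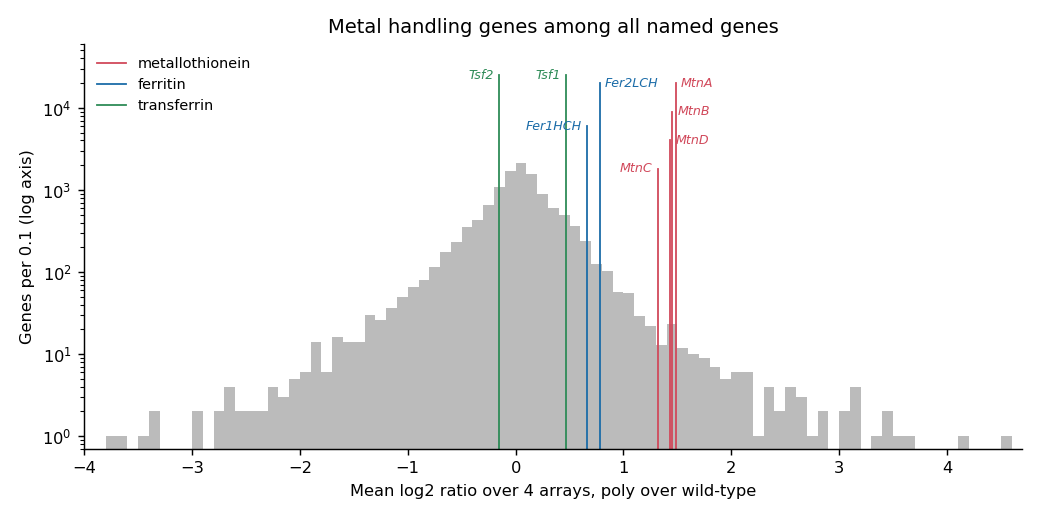
Number of named genes (log axis) by mean log2 ratio of *poly* over wild-type over 4 arrays, in bins of 0.1, with a line at each of the 8 measured metal handling genes (red, metallothioneins; blue, ferritins; green, transferrins). The metallothioneins lie between 1.32 and 1.48, far out in the upper tail, the ferritins at 0.66 and 0.78, and *Tsf2* within the bulk at −0.15.

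The ferritin chains had smaller ratios, and closer ones from array to array. *Fer1HCH*, the heavy chain, which carries the ferroxidase activity that oxidizes iron for storage, had log2 ratios of 0.89, 0.85, 0.27 and 0.65 on replicates 1 to 4. *Fer2LCH*, the light chain, the other subunit of the cage, had 0.78, 1.07, 0.33 and 0.93. Both chains were higher in *poly* on the 4 arrays, with the lowest value on replicate 3. Of the 8 genes 4 were higher on each array (*MtnA*, *MtnB* and both ferritin chains), where 15.2% of all named genes were.

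The mean for *Fer1HCH* was 0.66 ± 0.28 (SD, n = 4), or 1.58-fold (95% interval 0.29 to 1.04, adjusted p = 0.104 from limma). That for *Fer2LCH* was 0.78 ± 0.32, or 1.72-fold (95% interval 0.38 to 1.18, adjusted p = 0.0874). Neither passed. Without replicate 3 *Fer2LCH* passed, at 0.93 (adjusted p = 0.0402), and *Fer1HCH* did not, at 0.80 (adjusted p = 0.052). The 2 chains assemble into 1 cage, and their ratios differed by −0.12 ± 0.18 (heavy minus light; 0.11, −0.22, −0.063 and −0.28 on replicates 1 to 4), a difference within the spread between arrays (exact sign-flip permutation test, two-sided, p = 0.375, 0.562 after Benjamini–Hochberg adjustment over the 3 differences, n = 4). The mean of the metallothioneins exceeded that of the ferritins on each array, by 0.94, 0.40, 0.016 and 1.45. The mean difference was 0.70 ± 0.63, with p = 0.125 in the same exact test (adjusted p = 0.375), the smallest that 4 arrays allow.

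The patterns of the transferrins differed from each other. *Tsf1*, the haemolymph iron carrier, had ratios of 0.38, 0.97, −0.068 and 0.58, a mean of 0.46 ± 0.43 (95% interval −0.029 to 0.96, adjusted p = 0.344 from limma). It was above 0 on 3 arrays and just below it on replicate 3, without which its mean was 0.64 (adjusted p = 0.128). *Tsf2*, a membrane-bound transferrin of the septate junctions between epithelial cells, had ratios of −1.08, −1.02, 1.31 and 0.18. It was lower in *poly* on both arrays with *poly* in Cy5 and higher on both with *poly* in Cy3, so that its mean of −0.15 ± 1.13 (95% interval −1.31 to 1.01, adjusted p = 0.934) describes neither pair. Without replicate 3 it was −0.64 (adjusted p = 0.356). In a fit with a dye term, that term was the distance of the Cy5 pair's mean from the mean of the 4 arrays. It was −0.90 for *Tsf2* (unadjusted p = 0.0165, adjusted p = 0.497 from limma), whose means were −1.05 with *poly* in Cy5 and 0.74 in Cy3. For the other 7 genes the term was between −0.30 and 0.44, with unadjusted p-values of 0.144 or more. Of the relatives outside the chosen genes, *Fer3HCH*, a heavy chain of mitochondria, had a mean of 0.15 ± 0.27 (adjusted p = 0.707), and *Tsf3* one of −0.019 ± 0.18 (adjusted p = 0.975).

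**Figure D3:**
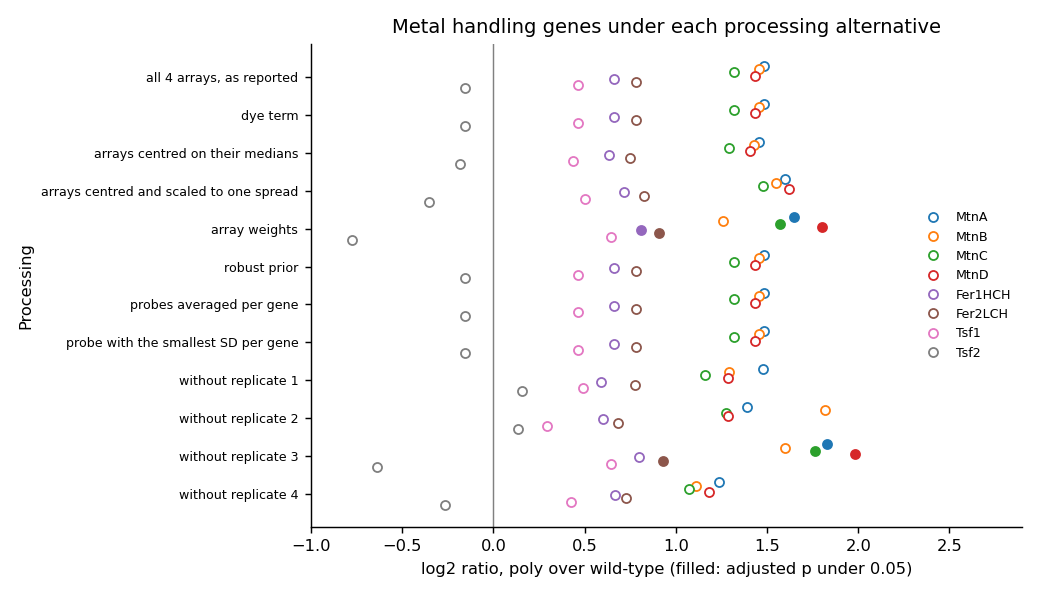
Mean log2 ratio of *poly* over wild-type for the 8 measured metal handling genes with all 4 arrays and under 11 processing alternatives, filled where the adjusted p was under 0.05. Filled points occur only with array weights (5 genes) and without replicate 3 (4 genes), and only *Tsf2* crosses 0.

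The 4 measured metallothioneins, both ferritin chains and *poly* all lie on chromosome arm 3R, and the mutant and wild-type larvae come from different stocks. Of 2869 measured genes of 3R, 1.64% were called higher and 1.36% lower, against 1.37% and 1.28% of 8545 genes of the other arms. *MtnC*, *MtnB* and *MtnD* lie in this order, with 7 genes between the first pair and 3 between *MtnB* and *MtnD*, while the genes for the ferritin chains are next to each other. The 36 other measured genes within 5 places of a metal handling gene had mean ratios from −0.62 to 0.56, a range that takes in *Tsf1* and *Tsf2*, and a median of −0.013. The 11 within 5 places of *MtnB*, *MtnC* or *MtnD* had mean ratios from −0.35 to 0.21, and the 2 measured genes between *MtnB* and *MtnD*, *Or92a* and *MFS9*, had 0.21 and −0.11. The 5 around the ferritin genes had mean ratios from −0.60 to 0.12, with a median of −0.29. The part of a stock difference in these ratios was not tested.

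Further genes of metal handling were taken from a list chosen by function: 43 of 51 were measured. Of these 1 rose (*Alas*) and 0 fell over the 4 arrays, or 2.33% higher against 1.42% of all named genes, which is near the background, and their median ratio was 0.15. At an unadjusted p under 0.05, 11 were higher and 2 lower, where 8.1% and 8.92% of all named genes were.

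Haem synthesis, which builds the ring into which iron is inserted, had the highest median of these roles, 0.61 over 6 genes. All 6 had means above 0, as did 6786 of 11907 named genes. *Alas*, 5-aminolevulinate synthase, the first enzyme of the pathway, had ratios of 0.69, 1.05, 0.72 and 0.95, high on each array whatever the dye. Its mean was 0.85 ± 0.18 (SD, n = 4), or 1.8-fold (adjusted p = 0.0404 from limma). It passed without replicate 3 (0.89, adjusted p = 0.0497) and with array weights (0.88, adjusted p = 0.012). The call was lost with a dye term (adjusted p = 0.0724), with arrays centred on their medians (adjusted p = 0.0581) and with scaled arrays (adjusted p = 0.0707). It was also lost without replicate 1, 2 or 4 (adjusted p between 0.167 and 0.223), where no probe on the arrays passed.

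*Pbgs*, porphobilinogen synthase, the second enzyme, had ratios of 1.19, 1.19, 0.53 and 0.98, again lowest on replicate 3. Its mean of 0.97 ± 0.31 did not pass (adjusted p = 0.0518 from limma). *FeCH*, ferrochelatase, which inserts the iron, had 1.35, 1.35, 0.48 and 0.97 and a mean of 1.04 ± 0.41 (adjusted p = 0.0704). Both passed without replicate 3, *Pbgs* at 1.12 (adjusted p = 0.0273) and *FeCH* at 1.23 (adjusted p = 0.0316). The intermediate enzymes *Urod* and *Ppox* had means of 0.28 (adjusted p = 0.332) and 0.26 (adjusted p = 0.645).

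Of 9 measured genes of iron uptake, sensing and mitochondrial iron none passed, where 1.42% of all named genes were called higher and 1.25% lower. At an unadjusted p under 0.05, 4 were higher and 0 lower, where 8.1% and 8.92% of all named genes were. *Nfs1*, the cysteine desulfurase that supplies sulfur for iron–sulfur clusters, had ratios of 0.65, 0.81, 1.75 and 1.46, a mean of 1.17 ± 0.52 (adjusted p = 0.0789 from limma). Unlike the metallothioneins it was highest on replicate 3. *Fdx2*, a mitochondrial ferredoxin, had 1.66, 1.40, 0.70 and 0.77 and a mean of 1.13 ± 0.47 (adjusted p = 0.0726). Both had ratios above 0 on each array, with *Fdx2* higher where *poly* carried Cy5 and *Nfs1* where it carried Cy3. With a dye term both passed, *Nfs1* with an adjusted p of 0.0442 and *Fdx2* with one of 0.0428, and so they did with array weights (adjusted p = 0.0342 and 0.011). Without replicate 3 neither passed, *Nfs1* at 0.97 (adjusted p = 0.0952) and *Fdx2* at 1.28 (adjusted p = 0.0648). At the low end were *Fdx1*, another ferredoxin, at −0.13 (adjusted p = 0.719), and *Irp-1A*, an aconitase-like protein that binds iron-responsive elements in transcripts, at −0.010 (adjusted p = 0.984).

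Zinc transporters and copper genes had medians near 0. Of 17 zinc transporters, with a median of 0.017, none passed, where 1.42% of all named genes were called higher and 1.25% lower. At an unadjusted p under 0.05, 4 were higher and 2 lower, where 8.1% and 8.92% of all named genes were. *ZnT49B* had nearly the same ratio on each array, −0.60, −0.56, −0.62 and −0.57, a mean of −0.59 ± 0.029 (adjusted p = 0.0549 from limma). *ZnT86D* had a mean of −0.44 ± 0.35 (adjusted p = 0.296). The highest were *ZnT35C*, a zinc exporter known for zinc storage in the Malpighian tubules, at 0.67 ± 0.35 (adjusted p = 0.13), and *Zip71B* at 0.65 ± 0.29 (adjusted p = 0.113).

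Of 9 genes for copper chaperones, exporters and copper enzymes, none passed, where 1.42% of all named genes were called higher and 1.25% lower. None had an unadjusted p under 0.05 in either direction, where 8.1% of all named genes were higher and 8.92% lower. For 9 genes, counts of 0 are near these shares. *Atox1*, the copper chaperone that hands the metal to the exporter ATP7, had ratios of −0.69, −0.20, 1.56 and 0.85, which split by dye as those of *Tsf2* did (mean 0.38 ± 1.02, adjusted p = 0.753). *Cox11*, which delivers copper to cytochrome oxidase, had a mean of 0.18 ± 0.72 (adjusted p = 0.863). *Mco1*, a multicopper oxidase, had one of −0.18 ± 0.17 (adjusted p = 0.555), and *Sod3*, an extracellular superoxide dismutase that uses copper and zinc, one of −0.17 ± 0.33 (adjusted p = 0.715).

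**Figure D4:**
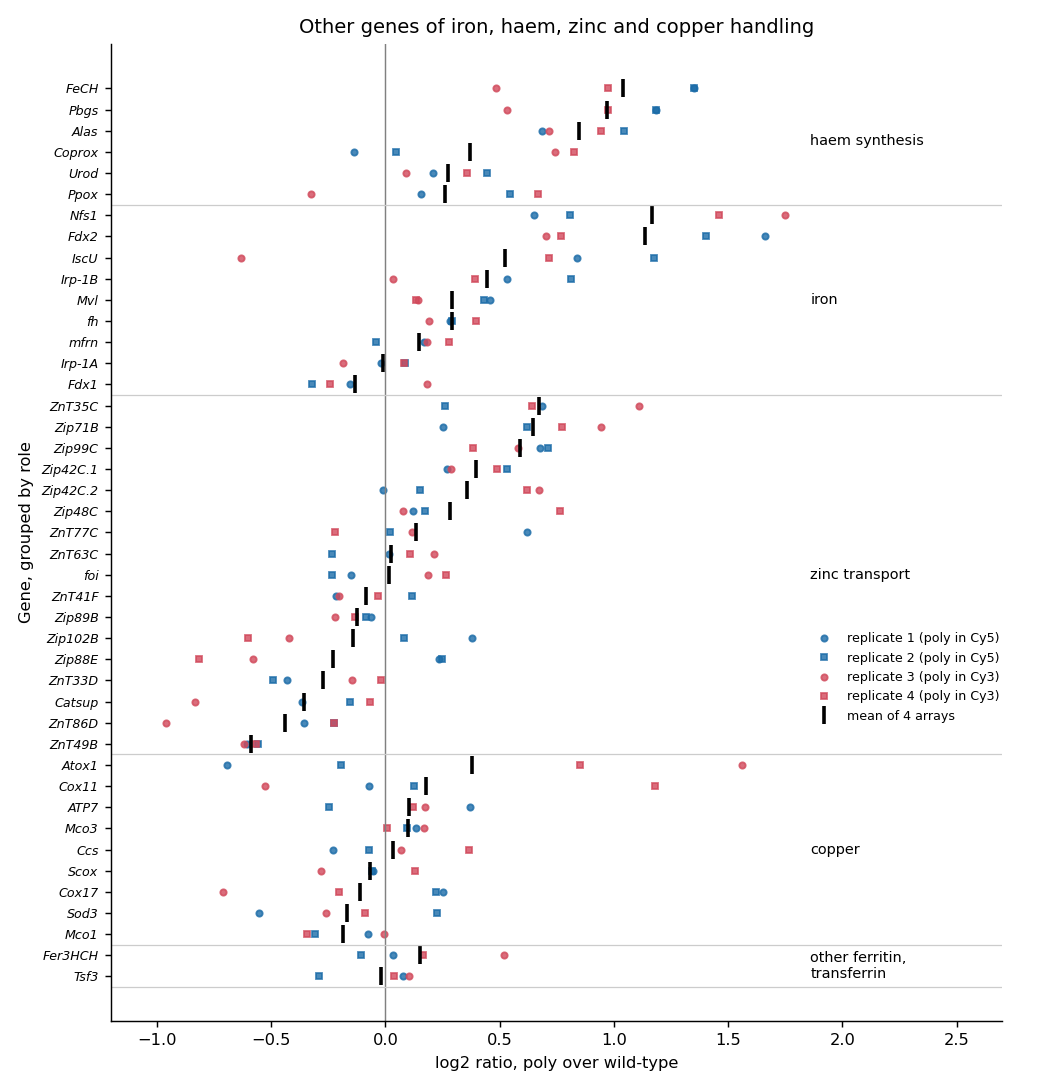
Log2 ratio of *poly* over wild-type for the 43 further measured genes of metal handling, grouped by role, with 1 point per array (blue, *poly* in Cy5; red, *poly* in Cy3) and a black bar at the mean. The 6 haem synthesis genes have means above 0, as do 6786 of 11907 named genes, while zinc transporters spread from −0.59 to 0.67.

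Digestive enzymes are made in the midgut. Of 22 of their genes measured out of 29 listed, 3 rose in *poly* (*Jon65Ai*, *Jon66Ci* and *Jon66Cii*, with means of 1.09, 1.88 and 2.56) and 0 fell, or 13.6% higher against 1.42% of all named genes. Of the 22, 11 were above 0 on each array, where 15.2% of all named genes were, and their median was 0.84. Their median was lowest on replicate 3, as were those of the metallothioneins, the ferritins and the fat body genes. It was 0.51, 0.92, 0.34 and 1.04 on replicates 1 to 4. Of 7 fat body genes none passed, against 1.42% of all named genes called higher and 1.25% lower. The median of the 7 genes was −0.21, with −0.40, −0.061, −1.05 and 0.13 on the arrays. Of these, 3 had means above 0 and 4 below, and some ratios differed widely between arrays. *Lsp2* had −3.48, 1.53, 3.43 and 1.12 on replicates 1 to 4, and *Fbp1* had −2.34, −0.12, 5.22 and −0.18. *Fbp2* had a mean of 2.52 ± 1.78 (adjusted p = 0.169 from limma), and *Mtp* one of −0.98 ± 0.49 (adjusted p = 0.103). Of 9 haemocyte genes *NimC1*, a phagocytosis receptor, rose, or 11.1% against 1.42% of all named genes. Its mean was 1.50 ± 0.52 (adjusted p = 0.0492 from limma). The other 8 did not pass, and of the 9 haemocyte genes 3 had means above 0 and 6 below (median −0.25). The collagen gene *vkg*, also made in fat body, had a mean of −1.22 ± 0.56 (adjusted p = 0.0803), and its partner *Col4a1* one of −1.06 ± 0.89 (adjusted p = 0.244). Without replicate 3, 7 of the midgut genes were called higher, against 1.81% of all named genes, and of the haemocyte genes 0 were called higher and 1, *vkg*, lower (−0.94, adjusted p = 0.0344), against 1.81% and 1.27%. The part of the midgut, fat body or haemocytes in the ratios of the metal handling genes was not tested.

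**Figure D5:**
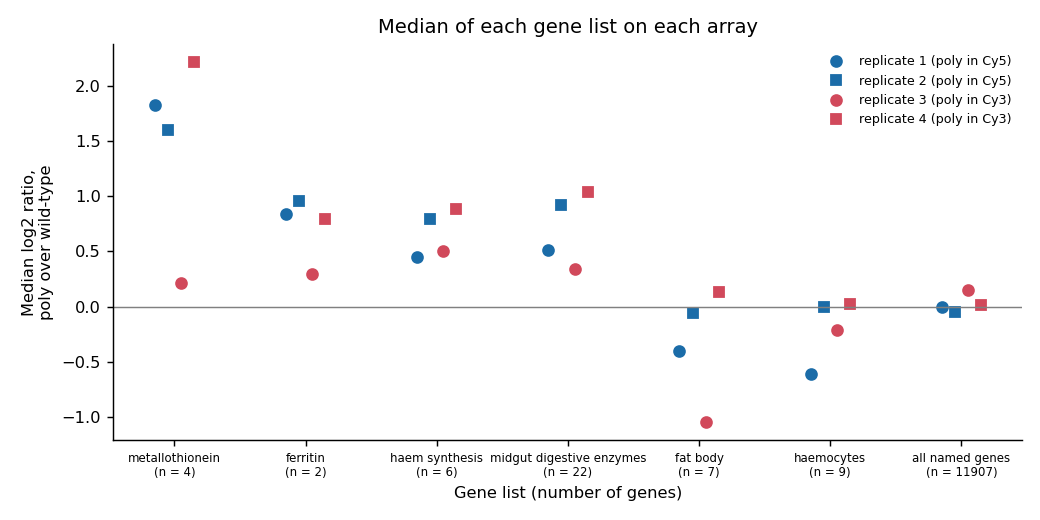
Median log2 ratio of *poly* over wild-type on each array (blue, *poly* in Cy5; red, *poly* in Cy3) for metallothioneins, ferritins, haem synthesis genes, marker genes of midgut, fat body and haemocytes, and all named genes. The metallothionein medians are 1.83, 1.60, 0.22 and 2.21 on replicates 1 to 4. Ferritins, midgut genes and fat body genes also have their lowest median on replicate 3.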

How the data were processed

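RNA was labelled from double-stranded cDNA, so strand was not kept, and hybridized to long-oligonucleotide arrays. Spots were quantified in Dapple and normalized by vsn by the authors, who deposited 14569 log2 ratios per array, none missing. The sources used here do not give the background correction, spot filters or vsn settings. Precision is limited by there being 4 arrays. The columns were read as *poly* over wild-type as deposited. The sources do not state their direction, which rests on *poly* and on *Pgd*, *Taldo* and *Pgls*, which the study lists as downregulated, being below 0 on all 4 arrays, in both dye orientations.

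Gene names came from the platform annotation in GEO, brought up to date through RefSeq (assembly Release 6 plus ISO1 MT), used for names, arms and gene order only: 12657 probes had 1 symbol, 96 several and 1 none, and 1815 are unnamed here. Each probe's 4 ratios were tested against 0 with limma (lmFit, eBayes, two-sided, 4.97 degrees of freedom), with p-values adjusted by Benjamini–Hochberg over every probe (threshold 0.05). A gene is given by its probe with the smallest p (*Mvl*, *Zip99C* and *Pxn* had 2). The genes and lists were chosen with earlier results of these data known. Named are the 8 measured genes, *poly*, further metal handling genes past the threshold, and per role the 2 lowest and 2 highest means (all in a role of under 5 genes). The tissue markers and the genes between *MtnB* and *MtnD* were named after their values were seen. The fit was tested on simulated ratios. Fits ran in limma 3.58.1 under R 4.3.3, and the permutation tests and figures in Python 3.11.15 with scipy 1.17.1, matplotlib 3.10.9, numpy 2.4.6 and pandas 2.3.3.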

Additional observations from a re-analysis of the deposited data

Results flagged for a closer look

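Of the 28 genes examined for an array far from the rest (the 8 measured metal handling genes, *poly* and 19 others), *MtnD* was the only one singled out. The gap between its ratio on replicate 3 (−0.21) and the nearest of the others (1.87) was 0.864 of the whole range, above Dixon's 95% critical value for 4 values. Chance singles out about 1 in 20 groups. *Tsf3* (0.8288, replicate 2 lowest) and *ZnT86D* (0.817, replicate 3 lowest) came next, just under this value, and *MtnC* followed at 0.704 (replicate 3 lowest).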

How the results depend on the processing

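The alternatives were a dye term, arrays centred on their medians, arrays centred and scaled to one spread, array weights, a robust prior, probes averaged per gene, the probe with the smallest SD, and each replicate left out. Over these 11, 7 of the 8 genes kept a mean above 0, and *Tsf2* turned to 0.16 without replicate 1 and 0.14 without replicate 2 (lowest with 1 left out −0.64, without replicate 3). No gene passed except with array weights, where 5 did (*MtnA*, *MtnC*, *MtnD*, *Fer1HCH* and *Fer2LCH*, against 5.22% of named genes called higher), and without replicate 3, where 4 did. The weights were 2.10, 2.44, 0.29 and 0.68 for replicates 1 to 4, so that fit leans on arrays with *poly* in Cy5. Leaving out 1 replicate gave between 0 and 4 of these genes higher.

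Genes higher and lower over the whole array numbered 169 and 149. With array weights there were 622 and 639, and with the dye in the fit 96 and 65. With scaled arrays 83 were higher and 134 lower. With 1 replicate left out there were between 0 and 216 higher and between 0 and 151 lower, with none without replicate 1, 2 or 4 (1529, 1478 and 1906 probes at an unadjusted p under 0.05). Of the 43 other measured genes of metal handling, 2 were higher with a dye term, where 96 of 11907 named genes were. With centred arrays 0 were higher, where 135 named genes were. With array weights 7 were higher and 1 lower, where 622 and 639 named genes were. With 1 replicate left out, where 0 to 216 named genes were higher, 0 to 3 of the metal handling genes were. Of the 19 of these genes named by rule, 4 changed sign, none of them called (the others were not examined for sign): *Tsf3* (0.072 without replicate 2, lowest −0.0595 without replicate 3), *Cox11* (−0.16 without replicate 4, highest 0.41 without replicate 3), *Atox1* (−0.17 with array weights, and −0.013 without replicate 3 to 0.74 without replicate 1) and *Irp-1A* (0.030 with array weights, and −0.041 without replicate 2 to 0.049 without replicate 3). The cause of these shifts was not tested. Signal over background is unknown, since the values are ratios. No paired analysis was possible beyond the test used, because each ratio already pairs a *poly* sample with a wild-type sample on its array, and no fit without this pairing can be made from ratios.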
